A study of Rattus norvegicus albus with 14 samples.

Results

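Cultured rat heart muscle cells were exposed to rosiglitazone for 0.5 h and compared with cells given only the solvent for the same time. The comparison used every sample that the labels place at 0.5 h, 6 of 14 samples. Each sample was 1 of 2 splits of the same numbered library, and the splits differed by no more than counting noise, with a chi-square per degree of freedom of 0.963 to 1.02 and a smallest p of 0.112 over the 7 libraries. The splits were therefore summed and counted once, which left 3 of 7 libraries: 1 with DMSO and 2 with rosiglitazone. With 1 DMSO library the spread among controls is unknown, and an exact permutation test of 1 library against 2 cannot give a p below 0.333. The genes described are therefore those that both rosiglitazone libraries placed on the same side of the DMSO library.

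The cells were ventricular myocytes isolated from 1-day-old Sprague-Dawley rats, pooled, depleted of attached fibroblasts by pre-plating and cultured on fibronectin. Organism labels and gene identifiers are those of rat, whereas mice are named in the title of the series. The DMSO group received 1% DMSO for 0.5 h, and the rosiglitazone group received 10 µmol/L rosiglitazone in the same 1% DMSO for 0.5 h, so both carried the solvent. Other groups received the drug for 24 h or 48 h. Their libraries entered the gene filter, the scaling and the spread of the fits on all 7 libraries. Their levels are given only for Angptl4 and LOC500035. Whether the libraries of a group stem from different cultures is not stated, so the p-values rest on a spread between libraries that could be technical alone.

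Rosiglitazone is a thiazolidinedione, a class of insulin-sensitising drugs that bind peroxisome proliferator-activated receptor gamma (PPARγ). This nuclear receptor pairs with a retinoid X receptor and, once a ligand is bound, raises transcription of genes of lipid uptake, storage and oxidation. Immediate early genes are a separate class: their transcription starts within minutes of a stimulus without new protein synthesis, and many encode transcription factors or proteins that switch the signal off again.

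The 3 libraries held 28000661 counts (DMSO), 28074620 (rosiglitazone library 1) and 27360284 (rosiglitazone library 2). Levels are given as CPM, the count scaled to library size (in units of 1e6 counts) after TMM normalisation, and are read across libraries within a gene, since counts also follow transcript length. A level of 5 CPM in the DMSO library was 141 counts, with an exact Poisson 95% interval of 4.2 to 5.88 CPM that covers counting error only. Markers of other cells were present beside those of heart muscle. The 17 fibroblast markers tested summed to 59370 CPM in DMSO and to 57750 and 60350 CPM with rosiglitazone. The 17 endothelial markers summed to 456 CPM in DMSO and to 487 and 533 CPM with rosiglitazone. The heart isoforms Myh6 (963 CPM in DMSO) and Tnnt2 (1289 CPM) were present in the same libraries, so markers of heart muscle and of other heart cells were both found.

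The DMSO library was only slightly farther from the rosiglitazone libraries than these were from each other. Of 15655 genes tested, 1000 (6.39%) differed more than 2-fold between DMSO and rosiglitazone library 1, 1077 (6.88%) between DMSO and library 2, and 834 (5.33%) between the 2 rosiglitazone libraries. Among the 10666 genes with a mean of at least 5 CPM these counts were 324, 253 and 163. The SD of the log2 difference over those genes was 0.393, 0.391 and 0.376. The comparisons parted mainly in the tail of large differences.

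**Figure D1:**
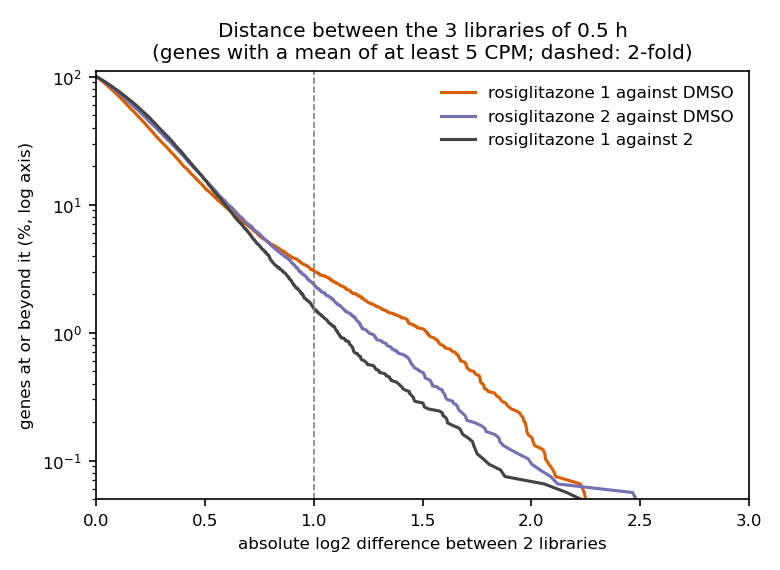
Share of the 10666 genes with a mean of at least 5 CPM (y axis, percent, log axis) whose absolute log2 difference between 2 libraries (x axis) is at or beyond each value, for the 3 pairs of libraries at 0.5 h. The 3 curves run close to each other at small differences; beyond the 2-fold line (dashed) both comparisons with DMSO hold more genes, 324 and 253 against 163 between the rosiglitazone libraries.

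No gene passed when all 7 libraries shared one estimate of spread. edgeR's quasi-likelihood test with Benjamini-Hochberg adjustment called 0 of 15655 genes (0%) at an adjusted p under 0.05, and the smallest adjusted p was 0.288. At an unadjusted p under 0.05 there were 95 genes, 17 higher and 78 lower with rosiglitazone. DESeq2 on the same 7 libraries called 2 genes, both lower: LOC500035, described below, and ENSRNOG00000025764, at 2.44 CPM in DMSO and 0.282 and 0.145 CPM with rosiglitazone. The fit with only the 3 libraries of 0.5 h called 174 of 14780 genes, 32 higher (0.217%) and 142 lower (0.961%). That fit has 1 residual degree of freedom, takes its spread from the 2 rosiglitazone libraries and assumes that DMSO cultures vary like them. The median prior degrees of freedom were infinite, so most genes were judged by the spread common to genes of like level. The common biological coefficient of variation was 0.514 with 7 libraries and 0.241 with 3. Adjusted p-values below are from the 3-library edgeR fit and are named as such. In the 7-library fit no gene named here passed.

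A fold rule without a test gave the genes described below. A gene counted as higher or lower when both rosiglitazone libraries were at least 2-fold from DMSO on the log2(CPM + 0.5) scale, which understates the change of low genes. By this rule 124 genes were higher (0.792%) and 278 were lower (1.78%) among the 15655 tested. With no fold asked, both libraries were above DMSO for 4730 genes (30.2%) and below it for 4979 (31.8%). The higher genes were mostly low in level: 28 of the 124 had a mean of at least 5 CPM, and their median was 0.548 CPM in DMSO against 2.33 and 2.62 CPM with rosiglitazone. Of the lower genes 111 of 278 reached that mean, with medians of 5.29 CPM in DMSO against 1.22 and 1.45 CPM. In the table that the authors deposited, 771 of 15203 genes were higher (5.07%) and 906 lower (5.96%) at their adjusted p under 0.05. The authors' deposited table places 112 of the 124 and 265 of the 278 under that threshold. Its counts are those that the fold rule used, so this overlap is not independent support. That table holds the 2 splits of each library as separate columns. Whether its p-values treated splits as replicates was not tested.

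**Figure D2:**
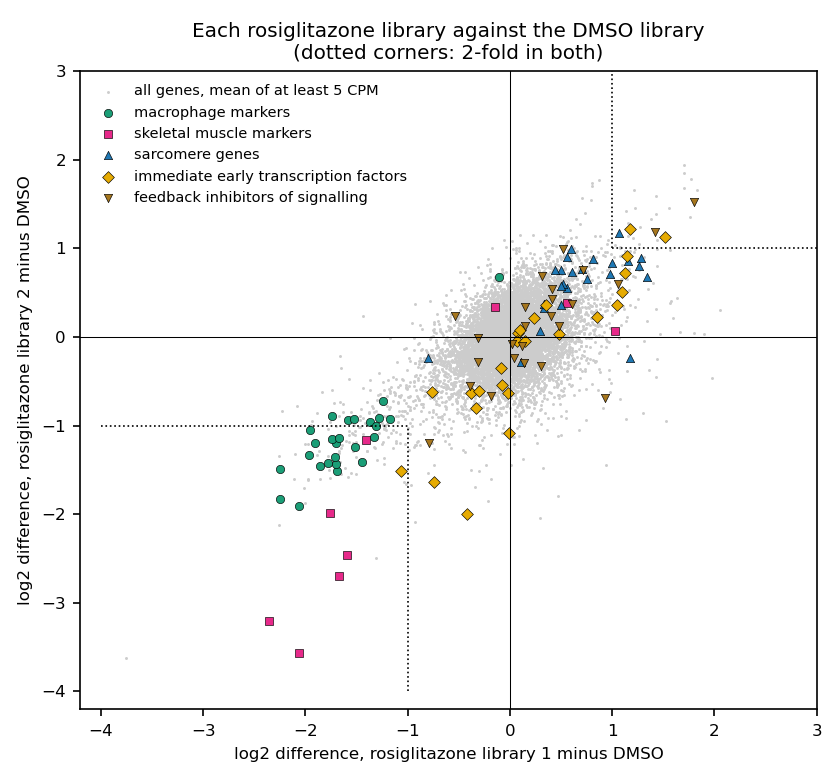
Log2 difference from DMSO on the log2(CPM + 0.5) scale in rosiglitazone library 1 (x axis) and library 2 (y axis) for genes with a mean of at least 5 CPM (grey), with members of 5 gene lists in colour; dotted corners mark 2-fold in both. Most macrophage markers and part of the skeletal muscle markers lie in or near the lower left corner, most sarcomere genes right of and above 0, and immediate early transcription factors on both sides. Both axes subtract the same DMSO library, so the spread along the diagonal is not a measure of agreement.

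Macrophage genes had the lowest medians of the 38 lists. Of 30 macrophage markers tested, 28 were below DMSO in both rosiglitazone libraries, 19 of them at least 2-fold, against 31.8% and 1.78% of all genes, and 0 were above DMSO in both. The list's median log2 difference was -1.63 in library 1 and -1.17 in library 2, against 0 in each over all genes tested. The 3-library edgeR fit called 20 of the 30, all lower. Summed over the list, the level was 1896 CPM in DMSO and 570 and 784 CPM with rosiglitazone, that is 30.1% and 41.3% of the DMSO level. In a bulk sample fewer cells of a type and less RNA per cell cannot be told apart.

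The markers behaved alike over a wide span of levels. Csf1r, the receptor for the macrophage growth factor CSF1, was at 109 CPM in DMSO and at 33.4 and 37.8 CPM with rosiglitazone (log2 fold change -1.61 ± 0.25 SE, adjusted p = 2.14e-07 in the 3-library edgeR fit). Lyz2, which encodes lysozyme, was at 356 CPM in DMSO and at 90.9 and 141 CPM with the drug. The scavenger receptor gene Msr1 was at 164 CPM in DMSO and at 45.1 and 59.6 CPM with the drug. In each case both rosiglitazone libraries lay under the DMSO library. Csf1r and Msr1 were picked by their distance from DMSO, and Lyz2 after its values were seen. Mrc1, the mannose receptor, went from 189 CPM in DMSO to 57.3 and 73.5 CPM, and Cybb, the catalytic subunit of the phagocyte oxidase, from 223 CPM to 64.6 and 82.9 CPM. The 16 markers with a mean of at least 20 CPM lay between 25.2% and 41.4% of DMSO in library 1 and between 34.8% and 60.2% in library 2. Library 2 was thus the nearer to DMSO, and it was above library 1 for 28 of the 30 markers. The 2 markers not below DMSO in both libraries were Lyve1, which resident macrophages and lymphatic vessels carry, at 6.19 CPM in DMSO and 5.71 and 10.2 CPM with the drug, and Marco, a scavenger receptor, at 0.141 CPM against 0 and 0.254 CPM. Cd163, another resident macrophage marker, was low throughout, at 3.32 CPM in DMSO and 1.44 and 0.545 CPM with the drug.

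Most complement genes, some of them also macrophage markers, were lower in the same libraries. Of 19 complement genes tested, 7 were at least 2-fold lower in both and 15 were below DMSO in both, against 1.78% and 31.8% of all genes. Summed over the list, the level with rosiglitazone was 71.1% and 91.6% of the DMSO level. C1qa, C1qb and C1qc, which encode the chains of C1q, are also on the macrophage list. C1qb was at 33.9 CPM in DMSO and at 7.71 and 8.69 CPM with rosiglitazone. C5ar1, the receptor for the complement fragment C5a, was at 50.1 CPM in DMSO and at 13.6 and 17.8 CPM. Clu, an inhibitor of the terminal complement complex, was not lower, at 676 CPM in DMSO and 694 and 969 CPM with the drug. Immune cell receptors were among the genes farthest below DMSO. Tlr8, an endosomal RNA sensor, was at 22.1 CPM in DMSO and at 5.11 and 5.67 CPM, and Adgre1, the F4/80 antigen of macrophages, at 11.4 CPM against 2.01 and 2.83 CPM. Cd4, which rat macrophages carry as well as T cells, was at 22.6 CPM in DMSO and at 4.33 and 4.80 CPM. Cd4 was taken from a list of other white blood cell markers that did not follow it: of 7 tested, 3 were above DMSO in both libraries and 2 below, with medians of 0.01 and 0.57.

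MHC class II genes did not all go the same way. Of 11 genes of antigen presentation tested, 9 were below DMSO in both libraries, 3 of them at least 2-fold, and 1 was at least 2-fold above, against 31.8%, 1.78% and 0.792% of all genes. Cd74, the invariant chain that guides class II molecules, was at 16.2 CPM in DMSO and at 6.38 and 8.36 CPM. RT1-Ba was at 6.19 CPM in DMSO and at 1.30 and 1.85 CPM, and RT1-Db1 at 5.30 CPM against 0.599 and 1.13 CPM. RT1-Bb, which encodes a class II beta chain, was the 1 member above DMSO in both libraries. It was at 3.00 CPM in DMSO and at 8.95 and 8.65 CPM. Genes of the rat RT1 region are close copies of each other, so reads could be split between them. Chemokine genes followed the macrophage list in part: Ccl6 was at 49.6 CPM in DMSO and at 17.0 and 22.7 CPM, and Ccl9 at 13.96 CPM against 4.58 and 4.47 CPM. Over 36 chemokine and cytokine genes tested, 2 were at least 2-fold lower and 2 at least 2-fold higher in both, against 1.78% and 0.792% of all genes. The part of the macrophage marker level in these results was not tested.

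Most lysosome genes were lower, though few by 2-fold. Of 30 tested, 23 were below DMSO in both libraries and 2 were at least 2-fold lower, against 31.8% and 1.78% of all genes, with medians of -0.43 and -0.13 in log2 difference. Creg1, a secreted glycoprotein of the endolysosomal pathway, was at 98.3 CPM in DMSO and at 24.6 and 31.8 CPM with rosiglitazone (adjusted p = 1.49e-08, 3-library edgeR fit). Gpnmb, a lysosomal membrane glycoprotein strong in activated macrophages, was at 2197 CPM in DMSO and at 738 and 966 CPM. Ctsz, the protease cathepsin Z, was at 164 CPM in DMSO and at 59.3 and 88.6 CPM. Neu1, the lysosomal sialidase, was nearly level at 27.1 CPM against 29.7 and 33.5 CPM, so the list did not move as one. The matrix gene Spp1, osteopontin, which macrophages and stressed heart cells both make, was at 2625 CPM in DMSO and at 948 and 1372 CPM. Beside these values the summed macrophage markers stood at 30.1% and 41.3% of DMSO, and their part was not tested.

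A second group on the lower side was a set of skeletal muscle genes. This list of 28 genes was drawn up after several of its members had been seen among the largest falls, so its counts only describe them. Of 22 tested, 12 were at least 2-fold lower in both libraries, against 1.78% of all genes. Of these, 6 had a mean of at least 5 CPM. Mybpc1, the slow myosin-binding protein C of skeletal muscle, was at 21.9 CPM in DMSO and at 3.88 and 1.93 CPM with rosiglitazone (log2 fold change -2.91 ± 0.41 SE, adjusted p = 1.06e-08, 3-library edgeR fit). Myh2, a fast myosin heavy chain, was at 37.0 CPM in DMSO and at 11.2 and 5.27 CPM. Tnnc2, the fast troponin C, was at 18.8 CPM in DMSO and at 4.12 and 1.13 CPM. In these genes library 2 was the farther from DMSO, the reverse of the macrophage markers. Over the whole list the libraries were alike, with medians of -1.16 and -1.12 in log2 difference. The list's summed level was 71% and 70% of DMSO. The fast troponin T gene Tnnt3 was at 14.7 CPM in DMSO and at 4.54 and 2.25 CPM, and Neb, the thin filament ruler nebulin, at 11.7 CPM against 3.10 and 2.58 CPM. Other members did not follow them: Casq1, a calcium store protein, was at 28.1 CPM in DMSO and at 41.6 and 36.8 CPM, and Ckm, muscle creatine kinase, at 89.0 CPM against 80.2 and 112 CPM.

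Heart sarcomere genes lay on the other side. Of 25 tested, 22 were above DMSO in both libraries and 1 was below, against 30.2% and 31.8% of all genes, with medians of 0.59 and 0.72 in log2 difference. The sum over the list was 11520 CPM in DMSO and 19620 and 18950 CPM with rosiglitazone, or 170% and 165% of DMSO. Most of the genes were less than 2-fold higher, and Myl2 was the 1 gene at least 2-fold higher in both. Myl2, the ventricular regulatory myosin light chain, was at 240 CPM in DMSO and at 505 and 543 CPM (adjusted p = 0.0111, 3-library edgeR fit). Actc1, cardiac alpha-actin, was at 1423 CPM in DMSO and at 3465 and 2649 CPM, and Myh7, the slow myosin heavy chain of the fetal rat ventricle, at 1307 CPM against 2913 and 2373 CPM. Neither of these 2 passed the 3-library edgeR fit, with adjusted p of 0.0663 and 0.111. Myoz2, a Z-disc protein that binds calcineurin, was at 83.9 CPM in DMSO and at 168 and 151 CPM, and Csrp3, the muscle LIM protein, at 103 CPM against 247 and 180 CPM; with Myl2 these were the 3 members called. Myl7, the atrial light chain, was the member below DMSO in both, at 78.3 CPM against 44.8 and 66.1 CPM.

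Fetal and hypertrophy genes, which the stressed or growing myocyte turns on, were placed likewise: 17 of 20 were above DMSO in both libraries and 2 were at least 2-fold higher, against 30.2% and 0.792% of all genes. Nppb, the natriuretic peptide BNP, was at 130 CPM in DMSO and at 386 and 258 CPM (adjusted p = 0.000596, 3-library edgeR fit). Nppa, its atrial counterpart, was at 856 CPM in DMSO and at 1657 and 1448 CPM. The vasoconstrictor gene Edn1, endothelin-1, stood at 19.9 CPM in DMSO and at 69.0 and 51.9 CPM (log2 fold change 1.60 ± 0.30 SE, adjusted p = 3.23e-05, 3-library edgeR fit). Edn1 and Cyr61 are on the list of targets of the actin-regulated factors SRF and YAP too, where 13 of 20 genes were above DMSO in both, against 30.2% of all genes. Cyr61, a matricellular protein, was at 681 CPM in DMSO and at 1437 and 1370 CPM, and Ankrd1, a stress-responsive cardiac ankyrin, at 1763 CPM against 3485 and 2595 CPM. Nppa, Cyr61 and Ankrd1 did not pass the 3-library edgeR fit, with adjusted p of 0.251, 0.0609 and 0.467. The summed sarcomere level was at 170% and 165% of DMSO in the same libraries, and its part in these values was not tested.

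**Figure D3:**
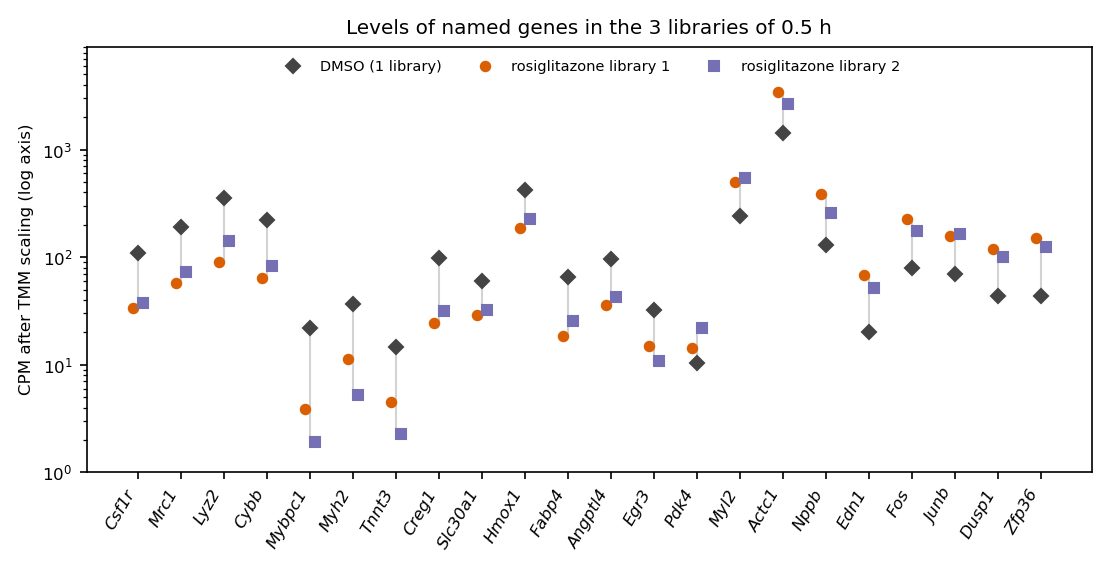
Level of 22 genes in the 3 libraries at 0.5 h (y axis, CPM after TMM scaling, log axis; diamonds DMSO, circles and squares rosiglitazone libraries 1 and 2; grey lines join the lowest and highest library). From Csf1r to Egr3 both rosiglitazone libraries lie under the DMSO library, and from Pdk4 to Zfp36 both lie over it.

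Immediate early genes split into members that were higher and members that were lower. Of 28 transcription factors and related proteins of this class, 12 were above DMSO in both libraries and 13 below, against 30.2% and 31.8% of all genes, with medians of 0.07 and -0.20. Fos, a subunit of the AP-1 factor, was at 78.8 CPM in DMSO and at 227 and 173 CPM with rosiglitazone (log2 fold change 1.34 ± 0.27 SE, adjusted p = 0.000151, 3-library edgeR fit). Junb, a partner of FOS in AP-1, was at 70.0 CPM in DMSO and at 158 and 164 CPM. Ier3, an early response gene that modulates cell survival, was at 78.8 CPM in DMSO and at 175 and 149 CPM. These 3 genes and Ier2, at 84.5 CPM against 185 and 139 CPM, were the members that the 3-library edgeR fit called higher. Egr1, a zinc finger factor, was at 488 CPM in DMSO and at 1011 and 629 CPM, so its 2 drug libraries differed from each other by more than library 2 differed from DMSO.

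On the lower side stood Egr3, a relative of EGR1, at 32.0 CPM in DMSO and 15.1 and 10.9 CPM with rosiglitazone (adjusted p = 0.00622, 3-library edgeR fit). Fosl1, another AP-1 subunit, was at 12.9 CPM in DMSO and at 7.54 and 3.82 CPM. Fosb was at 123 CPM in DMSO and at 91.8 and 30.4 CPM, and Nr4a1, an orphan nuclear receptor, at 49.0 CPM against 48.6 and 22.9 CPM. The last 2 genes were well below DMSO in library 2. In library 1 Nr4a1 was close to DMSO and Fosb was less far below it. Members of the same family thus lay on opposite sides of DMSO, Fos above and Fosl1 below, Egr1 above and Egr3 below. For Fosl1, as for Egr1, the drug libraries were farther from each other than the nearer one was from DMSO. These log2 distances were 0.897 against 0.742 for Fosl1 and 0.685 against 0.367 for Egr1.

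Among 28 genes that feed back on signalling, 14 were above DMSO in both libraries, 5 below and 3 at least 2-fold higher, against 30.2%, 31.8% and 0.792% of all genes. Zfp36, which encodes the mRNA-destabilising protein tristetraprolin, was at 43.2 CPM in DMSO and at 151 and 125 CPM with rosiglitazone (log2 fold change 1.68 ± 0.27 SE, adjusted p = 9.27e-07, 3-library edgeR fit). Dusp1, a phosphatase that inactivates MAP kinases, was at 43.8 CPM in DMSO and at 118 and 100.2 CPM. The ERK phosphatase gene Dusp6 was at 41.9 CPM in DMSO and at 87.6 and 63.7 CPM, and Spry2, an inhibitor of receptor tyrosine kinase signalling, at 71.0 CPM against 117 and 120 CPM. Neither passed in the 3-library edgeR fit, with adjusted p of 0.1 and 0.203. Nfkbiz, a nuclear regulator of NF-κB that is induced early by inflammatory signals, was lower instead, at 98.7 CPM against 56.8 and 42.7 CPM. Gadd45g, a growth arrest gene, lay just outside the fold rule at 33.2 CPM in DMSO and 90.5 and 66.3 CPM.

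PPAR target genes, the genes that rosiglitazone is known for, were not higher as a group at 0.5 h. Of 35 tested, 8 were above DMSO in both libraries and 14 below, against 30.2% and 31.8% of all genes, and 0 were at least 2-fold higher. The medians were -0.19 in library 1 and 0.05 in library 2. Angptl4, an inhibitor of lipoprotein lipase and a direct target of these receptors, was at 95.7 CPM in DMSO and at 35.9 and 43.1 CPM with rosiglitazone (log2 fold change -1.28 ± 0.25 SE, adjusted p = 0.000169, 3-library edgeR fit). At 24 h of rosiglitazone Angptl4 was at 545 and 417 CPM and at 48 h at 844 and 647 CPM, with no solvent sample of those times analysed here. Fabp4, a fatty acid carrier of adipocytes, capillaries and macrophages, was at 64.7 CPM in DMSO and at 18.5 and 25.3 CPM (adjusted p = 7.56e-06, 3-library edgeR fit). Angptl4 and Fabp4 were the 2 members that this fit called, both lower.

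The other targets stayed nearer to DMSO. Pdk4, which blocks pyruvate oxidation, was at 10.4 CPM in DMSO and at 14.4 and 21.7 CPM, and Scd, a fatty acid desaturase, at 20.8 CPM against 42.4 and 39.2 CPM; neither passed, with adjusted p of 0.685 and 0.0774 in the 3-library edgeR fit. Cd36, a fatty acid and scavenger receptor, was at 219 CPM in DMSO and at 115 and 162 CPM, and Lpl, lipoprotein lipase, at 565 CPM against 303 and 447 CPM. Both are also made by macrophages, and the part of the lower macrophage marker level was not tested. Cpt1a, the gate of fatty acid entry into mitochondria, was at 169 CPM in DMSO and at 152 and 168 CPM, and Plin2, a lipid droplet coat protein, at 248 CPM against 194 and 210 CPM. Acot2, a mitochondrial thioesterase, was at 28.9 CPM in DMSO and at 23.4 and 29.5 CPM.

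The receptors and their coregulators had median log2 differences of 0.04 in library 1 and -0.34 in library 2, so library 2 lay lower. Of 21 receptors and coregulators, 4 were above DMSO in both libraries, 7 below (30.2% and 31.8% of all genes) and 0 at least 2-fold away, and 0 were called by the 3-library edgeR fit. Pparg, the receptor that rosiglitazone binds, was low at 1.31 CPM in DMSO and 1.44 and 2.47 CPM with the drug. Ppara was at 3.96 CPM in DMSO and at 3.77 and 6.61 CPM, and Ppard at 35.5 CPM against 35.0 and 30.7 CPM. Rxra, their partner, was lower in both libraries at 47.5 CPM against 29.7 and 30.7 CPM, with an adjusted p of 0.503 in the 3-library edgeR fit.

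Genes of metal handling and oxidative stress were mostly lower. Of 12 metallothionein and zinc transport genes tested, 7 were below DMSO in both libraries and 3 were at least 2-fold lower, against 31.8% and 1.78% of all genes. Mt2A, a metallothionein that binds zinc and copper, was at 20.2 CPM in DMSO and at 8.45 and 9.52 CPM with rosiglitazone. Mt1, its close relative, was at 3.36 CPM in DMSO and at 0.669 and 0.618 CPM, which were 95 counts against 19 and 17. Slc30a1, the zinc exporter of the cell membrane, was at 60.4 CPM in DMSO and at 28.9 and 32.2 CPM, and Slc39a8, an importer of zinc and manganese, at 78.7 CPM against 37.2 and 36.7 CPM. The last 2 genes passed the 3-library edgeR fit with adjusted p of 0.029 and 0.00479, whereas Mt2A and Mt1 did not, at 0.0945 and 0.255. In the oxidative stress and iron list 19 of 27 genes were below DMSO in both and 2 above, against 31.8% and 30.2% of all genes. Hmox1, heme oxygenase, was at 425 CPM in DMSO and at 185 and 229 CPM (adjusted p = 0.00651, 3-library edgeR fit), and Osgin1, an oxidative stress response gene, at 24.0 CPM against 10.8 and 10.4 CPM. Nqo1, a quinone reductase under the same NRF2 control, was at 186 CPM in DMSO and at 113 and 134 CPM. Nfe2l2, which encodes NRF2, was level at 242 CPM against 246 and 260 CPM. Macrophages also express Hmox1, and the part of their lower marker level was not tested.

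Red blood cell genes were higher but not past the fold rule. Of 9 tested, 7 were above DMSO in both libraries, against 30.2% of all genes, and the sum was 140.5 CPM in DMSO and 213 and 373 CPM with rosiglitazone. Hbb, beta-globin, was at 44.4 CPM in DMSO and at 77.8 and 150 CPM, and the drug libraries were farther from each other on the log2 scale than library 1 was from DMSO. Globin genes have near-identical copies between which reads could be split.

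The genes farthest above DMSO outside these lists were low in level. Sox17, a transcription factor of endothelium and endoderm, was at 1.77 CPM in DMSO and at 6.87 and 7.70 CPM, while the endothelial list as a whole had medians of 0.06 and 0.34. Tox3, a chromatin-associated factor, was at 8.13 CPM in DMSO and at 24.8 and 23.3 CPM. Wfdc1, a secreted protein with a whey acidic protein domain, was at 4.07 CPM in DMSO and at 14.3 and 14.2 CPM. These genes were picked because both drug libraries lay at least 2-fold above DMSO, so that the DMSO library stood apart follows from the choice. Yipf7 (2.40 CPM in DMSO, 9.40 and 9.52 CPM with the drug), Galnt13 (1.77 CPM, 6.90 and 8.21 CPM) and Kbtbd12 (2.83 CPM, 11.3 and 10.0 CPM) were picked by the same rule. Mycn, a growth-promoting factor of the MYC family, was at 2.86 CPM in DMSO and at 7.33 and 10.1 CPM and did not pass, with an adjusted p of 0.094 in the 3-library edgeR fit.

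The gene with the smallest p in both edgeR fits was LOC500035, a locus without a described function in the sources used here. It was at 81.1 CPM in DMSO and at 5.57 and 6.14 CPM with rosiglitazone, which were 2295 counts against 158 and 169. Its log2 fold change was -3.79 ± 0.29 (SE) in the 3-library edgeR fit, with an adjusted p of 6.18e-35. In the 7-library edgeR fit its adjusted p was 0.288, and it passed in the same fit without a filter on low counts (0.0166) and with DESeq2 (3.05e-10). The later rosiglitazone libraries held LOC500035 at 16.3 and 18.6 CPM (24 h) and at 26.3 and 39.6 CPM (48 h), so the single DMSO library was the highest of all 7.

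**Figure D4:**
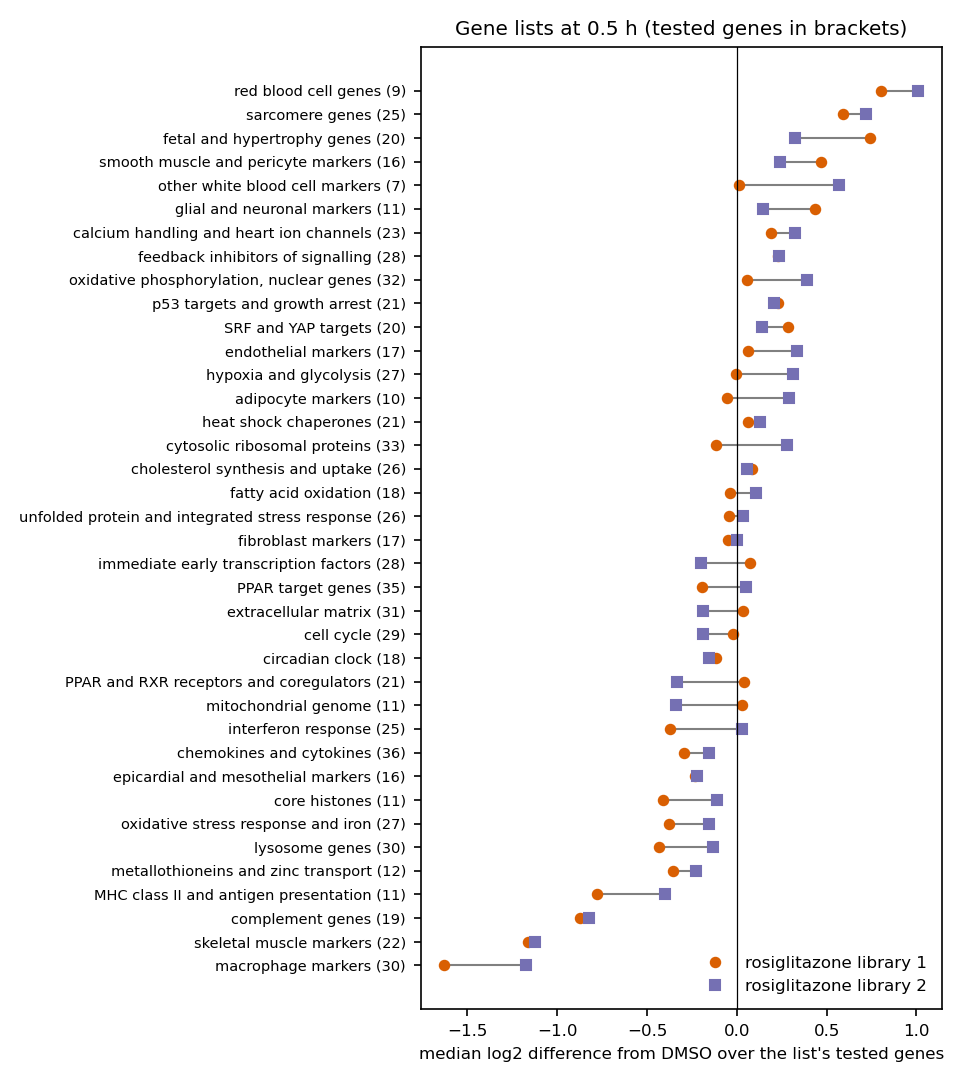
Median log2 difference from the DMSO library (x axis, log2(CPM + 0.5) scale) over the tested genes of each of 38 gene lists (y axis, number of tested genes in brackets), for rosiglitazone library 1 (circles) and library 2 (squares). Macrophage markers lie lowest at -1.63 and -1.17 and red blood cell genes highest at 0.80 and 1.01, and several lists, cytosolic ribosomal proteins among them, have the libraries on opposite sides of 0.

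Most other lists stayed near DMSO. Fibroblast markers had a median of -0.05 in library 1 and lay at DMSO in library 2, and 0 of 17 were at least 2-fold away in both libraries. Cell cycle genes, cholesterol synthesis, fatty acid oxidation, heat shock chaperones and the unfolded protein response each had 0 members at least 2-fold higher or lower in both. Oxidative phosphorylation genes were above DMSO in both libraries for 21 of 32 and below for 0, against 30.2% and 31.8% of all genes, yet by little, with medians of 0.06 and 0.39. Cytosolic ribosomal protein genes lay below DMSO in library 1 and above it in library 2, with medians of -0.12 and 0.28. Library 1 minus library 2 had medians of -0.33 and -0.41 for these 2 lists, so the rosiglitazone libraries differed from each other here.

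Values near the 2-fold threshold show how little separates members from the rest. Cyr61 (log2 differences of 1.08 and 1.01) and Sfrp1 (1.08 and 1.01) lay just inside, and Nppb (1.57 and 0.98) and Gadd45g (1.44 and 0.99) just outside. On the lower side the immune receptor gene Nfam1 (24.5 CPM in DMSO, 5.92 and 11.99 CPM with the drug) and Psd4 (12.9 CPM, 6.20 and 5.85 CPM) lay just inside. Igsf6 (14.6 CPM, 7.08 and 6.94 CPM) and the leukocyte integrin gene Itgb2 (123 CPM, 31.6 and 61.6 CPM) lay just outside.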

How the data were processed

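The members and gene lists were chosen with earlier results of these data known. The authors deposited raw counts per Ensembl gene with their own log2 fold changes and p-values. Per the submitters' processing notes, tools included HTSeq, DESeq2, cutadapt 1.11 and FastQC 0.11.5, and 2 builds appear, Rnor_6.0 and hg19; aligner and strand setting: not given in the sources used here. Libraries were made with a directional kit, per the labels' protocols. Of 33005 entries 460 were repeats, which left 32545 genes. Splits were summed. edgeR 4.0.16 (R 4.3.3, filterByExpr, TMM, robust quasi-likelihood) fitted all 7 libraries in 4 groups; DESeq2 1.42.0 was an alternative. Each SE is the absolute log2 fold change divided by the square root of the quasi-likelihood F statistic. It holds no spread among DMSO libraries. Only the 7-library edgeR fit was tested on simulated data. The 37 lists held 874 entries, of which 858 matched a gene and 800 were tested; 4 matched through an older symbol. Skeletal muscle markers were added after seeing the data. Named genes were the 15 farthest above and below DMSO by the nearer library (mean of at least 5 CPM), up to 5 and 2 per list, the 4 smallest p-values and a fixed set of PPAR and heart genes; Ckm, Casq1, Nr4a1, Fosb, Csrp3, Cd163, Lyve1, Marco, Lyz2, Mrc1, Cybb and the genes near the threshold were chosen after their values were seen. A count of 0 allows up to 3 counts, 0.106 CPM in the DMSO library.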

Additional observations from a re-analysis of the deposited data

How the results depend on the processing

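The count of genes at an adjusted p under 0.05 was 0 with all 7 libraries and 0 with DESeq2's size factors, a mean of at least 5 CPM, either split alone, a threshold of 0.10 or any rosiglitazone library left out (0 to 0). It was 2 with DESeq2's test, 1 (LOC500035) without a filter, 78 with splits as replicates and 174 with the 3 libraries of 0.5 h; the causes were not tested, except that splits share a library. The fit could not be made without the DMSO library. With a replicate block the count was also 0; same-numbered rosiglitazone libraries correlated at -0.083, 0.062 and -0.122, so the numbers give no pairing.

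The fold rule called 528 genes higher and 834 lower at 1.5-fold and 14 and 45 at 3-fold. A pseudocount of 0.1 CPM gave 462 and 639 and one of 2 CPM gave 23 and 110. A mean of at least 5 CPM gave 28 and 111. Without rosiglitazone library 1 the counts were 414 higher and 663 lower, and without library 2 they were 427 and 573. Of the named genes' and lists' values under the alternatives, 1310 moved by less than the spread between the rosiglitazone libraries, 95 by more, and 0 reversed. Another scaling moved the median gene by at most 0.012 (log2). Depth limits genes of few counts, and the spread among DMSO cultures is unknown for every gene.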

Other observations

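The 2 rosiglitazone libraries differed from each other in genes chosen here after their values were seen. Mki67, a proliferation marker, was at 153 CPM in DMSO, 188 CPM in library 1 and 36.8 CPM in library 2. Cenpf, a kinetochore protein, was at 177, 181 and 80.6 CPM in the same order, and Cenpe, a mitotic motor, at 93.9, 112 and 43.3 CPM. Xirp2, an actin-binding protein of heart muscle, went the other way against DMSO, at 59.5, 190 and 61.9 CPM. These 4 genes were lower in library 2 than in library 1. Cytosolic ribosomal protein genes had a median log2 difference between library 1 and library 2 of -0.41 over 33 genes. Whether these differences are linked was not tested.

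The 2 most abundant entries without an official symbol among the genes at least 2-fold lower were ENSRNOG00000043866, at 6461 CPM in DMSO and 2576 and 2728 CPM with rosiglitazone, and ENSRNOG00000030478, at 2071 CPM against 718 and 855 CPM. The 11 mitochondrially encoded protein genes tested had medians of 0.03 and -0.34 and 0 of them were 2-fold away in both libraries.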
